A study of Mus musculus with 4 samples.

Results

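BMP ligands and their antagonists were examined as 10 genes, 5 ligands (Bmp2, Bmp4, Bmp6, Bmp7 and Bmp8a) and 5 genes that hold BMP signalling down (Nog, Fst, Grem1, Chrd and Bambi), out of 21887 protein-coding genes on the autosomes and sex chromosomes. Every region of the authors' deposited comparison that overlapped a gene body or the 20 kb on either side of it (GRCm38, mm10) was taken, which gave 208 of 484555 listed regions, 153 at ligands and 55 at antagonists. The methylation of hair matrix keratinocytes, dividing cells of the follicle bulb whose progeny make the hair shaft and inner root sheath, was measured by whole-genome bisulfite sequencing at postnatal day 4.5. One group was a Tet2/Tet3 double knockout made with Krt14-Cre (DKO, 2 libraries), in which recombination is driven in Krt14-expressing epithelium, and the other was wild type (WT, 2 libraries). The labels name no alleles beyond these, and give neither the sex of the mice, nor whether the WT mice carried Cre, nor whether each library stands for an animal of its own. TET enzymes oxidise 5-methylcytosine as a step towards its removal. Since bisulfite does not tell 5-methylcytosine from 5-hydroxymethylcytosine, a level is the sum of both. The cells had been sorted, and were native or formaldehyde fixed.

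Each value below is the authors' mean level of a group over a region, in percent, and a difference is DKO minus WT in percentage points. The values of single libraries and the depth of reading were not used here, so no difference has a replicate check, no test between the groups was possible and none is given. The header of the table does not name its groups. WT was read as the first group from the order of genotypes in the table's title, and every direction would turn with the opposite order. The labelled cell type could not be checked, because methylation levels of listed regions give no expression of marker genes. A listed region at least 20 points higher in the DKO is called a gained region, a size bound and not a test.

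BMP ligands are secreted dimers of the TGF-beta superfamily that bind paired type I and type II receptor kinases, which phosphorylate Smad proteins that then act on target genes such as the Id genes. Noggin, chordin, gremlin and follistatin bind ligands outside the cell and keep them from their receptors, and Bambi is a membrane pseudoreceptor without a kinase domain. In the hair follicle, BMP signalling supports differentiation of matrix cells into hair shaft and holds stem cells at rest, and noggin from the mesenchyme opposes it during follicle formation.

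Each of the 10 gene windows held a region of higher methylation in the DKO, but such regions were dense at only 3 ligands. The median difference over all listed regions of a gene was positive at Bmp2, Bmp4, Bmp7 and Bambi. It was negative at Bmp6 (-0.646 points), Bmp8a (-0.874), Nog (-0.663), Fst (-2.56), Grem1 (-2.85) and Chrd (-2.67). All 10 members held at least 1 gained region, where 75.1% of all protein-coding gene windows did, so that presence alone does not set them apart. Of the 208 listed regions 66 were gained (31.7%), against 22.9% of all listed regions. That background includes regions far from genes, and the share over the windows of all genes was not taken. In the wider lists of BMP ligands and of antagonists and modulators given below, which include the 10 genes, the gained share was 29.3% and 28.2%. Of the 66 gained regions Bmp7 held 21, Bmp4 11, Bmp6 11 and Bmp2 7, while Bambi held 5, Chrd 4, Bmp8a, Nog and Fst 2 each, and Grem1 1. Bmp2, Bmp4 and Bmp7 together held 39 of the 66. No listed region of any member was 20 points or more lower in the DKO (0.0896% of all listed regions were, and 0.704% of all gene windows held such a region), and 1 region, at Chrd, was at least 10 points lower (2.54% of all; 14.4% of all gene windows held such a region).

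**Figure D1:**
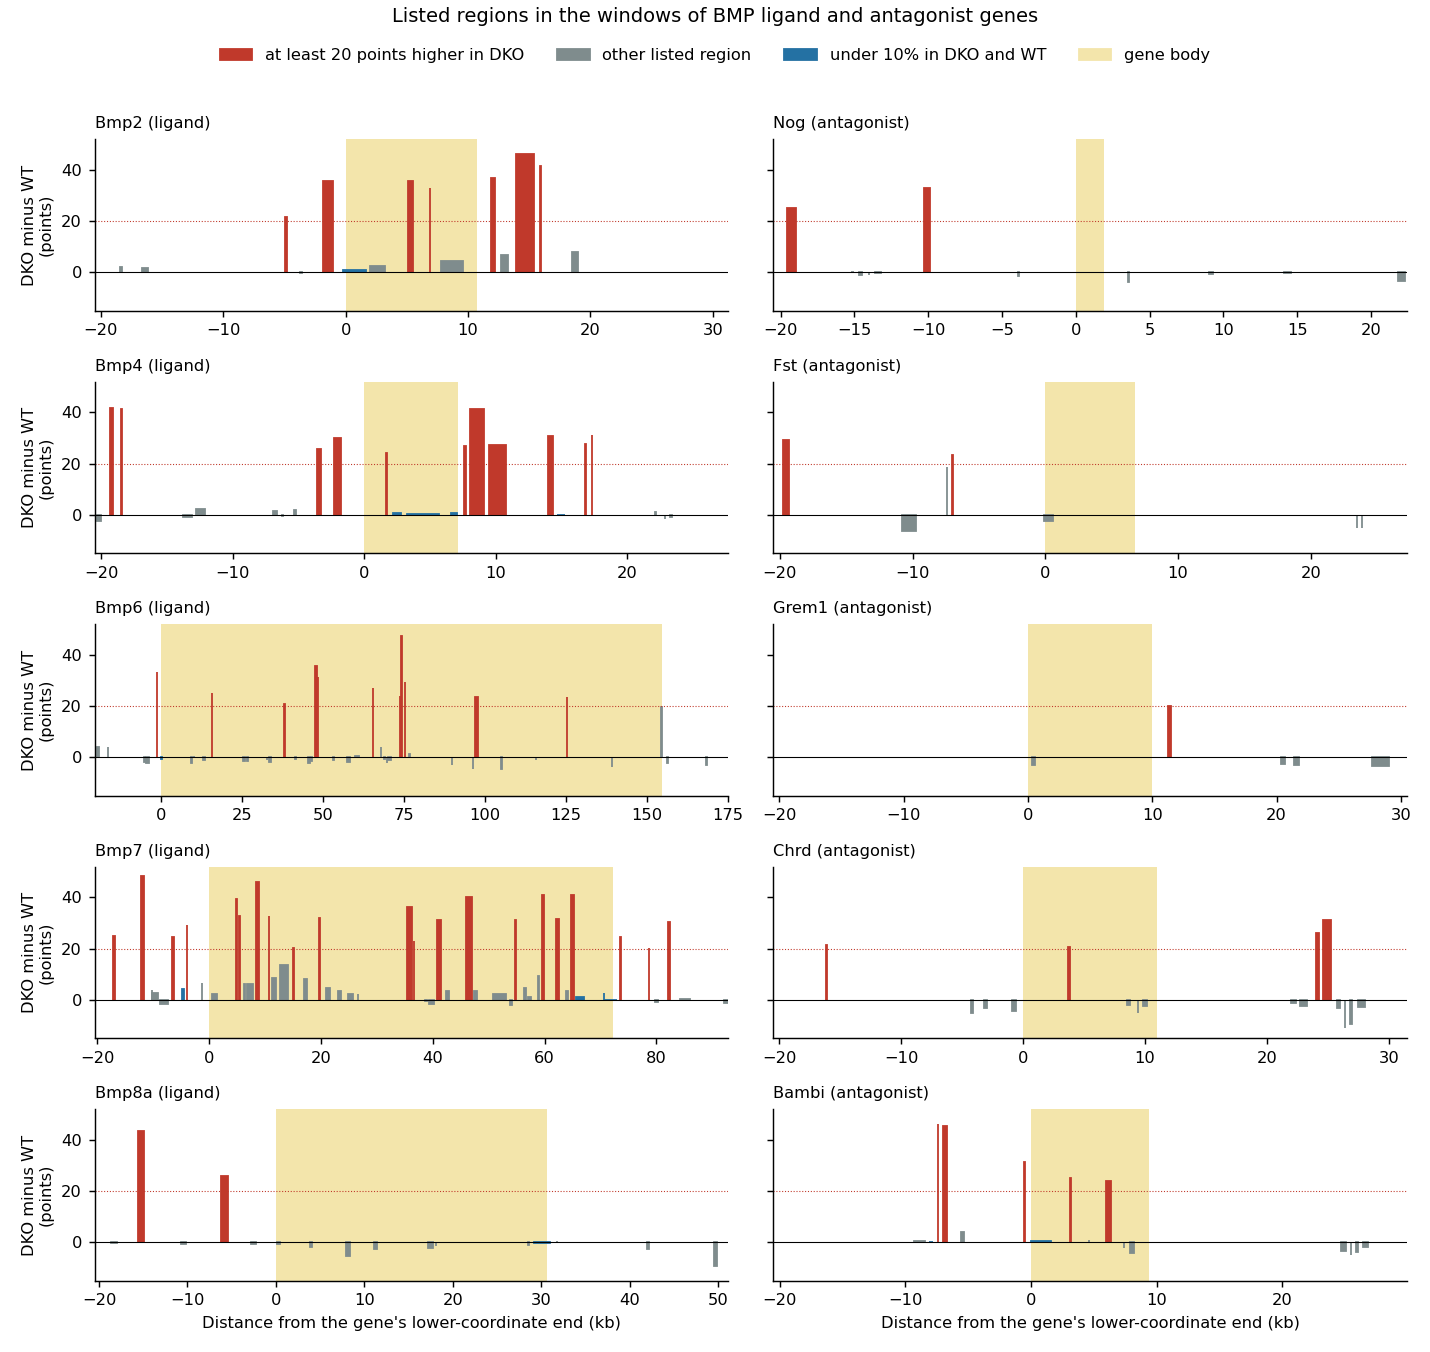
Each bar is a listed region at its distance in kb from the lower-coordinate end of the gene, with the DKO minus WT difference in percentage points as its height; regions narrower than the outline are drawn at the outline's width, and the x axis has its own scale for each gene. Gained regions (red, 20 points or more, dotted line) run through and around Bmp2, Bmp4 and Bmp7, while Grem1 has 1 and Nog, Fst and Bmp8a have 2 each; blue bars mark regions under 10% in the DKO and the WT.

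As in the whole table, most gained regions of the 10 genes had an intermediate WT level. Their median level was 75.2% in the DKO (interquartile range 65.2 to 80.4) and 40.4% in the WT (30.6 to 51.7), against 76.3% in the DKO and 45.6% in the WT over all 111028 gained regions. In 57 of the 66 the WT level lay between 20% and 60% (84.4% of all gained regions), and in 56 the DKO level reached 60% (88.5% of all), shares near those of the whole table. The differences ran from 20.1 to 48.4 points with a median of 31.0. Gains of 40 points or more numbered 14. Of these, 12 were among the 52 gained regions of ligands, spread over all 5 of them. The other 2 were among the 14 of antagonists, at Bambi. The share over all gained regions was not taken at this bound. The upper quartile of the difference was 36.0 points over the 66 and 34.2 points over all gained regions. The difference was between 3.21 and 13.5 times the spread estimate of the authors' deposited table (median 8.07). That estimate can be shared by neighbouring regions, as those at Bmp4 and Bmp7 show, and need not be measured on a region alone. Of the 66, 8 had no more than 2 cytosine positions and 35 had at least 10.

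**Figure D2:**
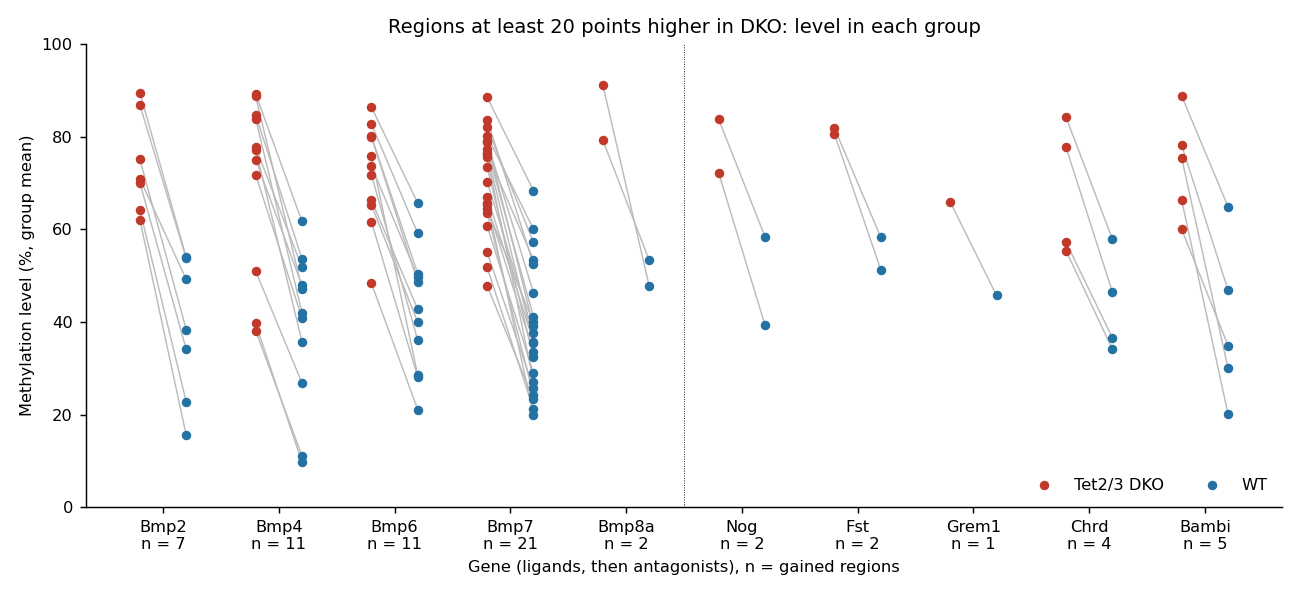
Each line joins the DKO level (left, red) and the WT level (right, blue) of 1 gained region, in percent, with the number of gained regions under each gene. Levels in the WT spread from 9.74% at Bmp4 to 68.4% at Bmp7, and those in the DKO from 38.1% at Bmp4 to 91.1% at Bmp8a.

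CpG-dense regions of low level were listed at the ligand genes and at Bambi. Under 10% in the DKO and the WT were 13 of the 208 regions (1.63% of all listed regions were), 11 at ligands and 2 at Bambi, with medians of 6.04% in the DKO and 4.87% in the WT. Such a region lay within 1 kb of a gene end in all 5 ligands and in Bambi, from 335 cytosine positions at Bmp2 to 11 at Bmp6. Its level was 3.92% in the DKO and 3.10% in the WT at Bmp2, and 2.65% in the DKO and 2.60% in the WT over 317 positions at Bmp7. At Bambi, 262 positions were at 2.56% in the DKO and 2.18% in the WT. At Bmp8a, 236 positions were at 6.35% in the DKO and 6.76% in the WT. At Bmp4 it was 6.09% in the DKO and 5.37% in the WT over 41 positions, and at Bmp6 2.89% in the DKO and 3.36% in the WT. The rule for these 13 regions uses both levels, so their likeness is no result. Chosen by the WT level alone, 16 regions of the members were under 10%, of which 13 (81.25%) were also under 10% in the DKO, against 89.7% in the whole table. The other 3 were a region of 109 positions inside Bmp2, at 12.0% in the DKO and 9.49% in the WT, a region of 11 positions inside Bmp7, at 12.4% in the DKO and 8.84% in the WT, and the gained region of Bmp4 at 46381226 to 46381759. The longest at Bmp4, inside the gene, had 278 positions and was at 3.15% in the DKO and 2.67% in the WT. No region of this kind was listed at Nog, Fst, Grem1 or Chrd, which says nothing of their level, since only listed regions have one here. Among regions with at least 6 positions, the low ones had a position every 8.0 bp at the median (8.03 bp over all low regions of that size), the gained ones every 22.8 bp (30.1 bp over all gained regions of that size) and the other listed regions every 31.4 bp. Of the gained regions of the members, 14 of 66 (21.2%) lay within 2 kb of a low region of at least 20 positions, against 6.25% of all gained regions. They were 5 at Bmp4, 4 at Bmp7, 4 at Bambi and 1 at Bmp2. This measure was chosen after the maps were seen, and its background includes gained regions far from genes.

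Sequence from the RefSeq promoter table (GRCm38.p6) was at hand for Bmp4, Bmp6, Bmp8a, Grem1 and Chrd among the members, and for lncRNA start sites inside the Bmp7 window. The 250 bases before a start site are shown for 5 of these, 5′ to 3′ on the gene's strand, with each CG in capitals (the motif is the same on both strands). They contrast a flanked ligand promoter, stretches that lie inside regions low in both groups, an antagonist promoter and a stretch inside a region that was high in both.
Bmp4 (chr14:46390670-46390919, minus strand): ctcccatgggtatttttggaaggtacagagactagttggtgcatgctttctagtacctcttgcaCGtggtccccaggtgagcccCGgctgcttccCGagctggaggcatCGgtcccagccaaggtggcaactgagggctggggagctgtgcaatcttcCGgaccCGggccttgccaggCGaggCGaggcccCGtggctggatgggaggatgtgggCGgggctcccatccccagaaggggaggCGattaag
Bmp8a (chr4:123343253-123343502, minus strand): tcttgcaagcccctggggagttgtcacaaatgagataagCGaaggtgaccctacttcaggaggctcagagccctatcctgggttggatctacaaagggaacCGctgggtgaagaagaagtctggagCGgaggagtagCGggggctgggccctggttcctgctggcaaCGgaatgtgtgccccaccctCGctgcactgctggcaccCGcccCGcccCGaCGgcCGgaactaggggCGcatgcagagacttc
Gm40010 (chr2:172939646-172939895, minus strand, inside Bmp7): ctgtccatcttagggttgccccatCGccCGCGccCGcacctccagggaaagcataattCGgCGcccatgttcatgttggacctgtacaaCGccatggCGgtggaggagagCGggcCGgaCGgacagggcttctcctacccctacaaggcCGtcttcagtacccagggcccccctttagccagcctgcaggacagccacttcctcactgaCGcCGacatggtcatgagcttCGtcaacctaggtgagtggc
Grem1 (chr2:113758649-113758898, minus strand): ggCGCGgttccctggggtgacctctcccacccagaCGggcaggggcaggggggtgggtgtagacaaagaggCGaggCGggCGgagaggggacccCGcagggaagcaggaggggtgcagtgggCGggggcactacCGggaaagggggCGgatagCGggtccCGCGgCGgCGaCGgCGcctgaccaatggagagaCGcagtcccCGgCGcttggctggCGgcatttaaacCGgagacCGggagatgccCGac
1700055K11Rik (chr2:172860082-172860331, plus strand, below Bmp7): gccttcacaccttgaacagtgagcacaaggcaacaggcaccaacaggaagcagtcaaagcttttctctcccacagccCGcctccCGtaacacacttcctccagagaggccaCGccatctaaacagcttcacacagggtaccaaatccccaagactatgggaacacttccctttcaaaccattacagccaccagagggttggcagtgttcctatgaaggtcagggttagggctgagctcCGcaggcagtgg
The Bmp4 stretch holds 11 CG dinucleotides, and 35.6% of the 32851 promoters of the table hold as many or more. No listed region overlapped it, and the nearest gained region began 157 bp upstream. The Bmp8a stretch with 12 (33.5% of promoters hold as many or more) lay in the region at 6.35% in the DKO and 6.76% in the WT. The Gm40010 stretch with 15 (27.3%) lay in the Bmp7 region at 2.65% in the DKO and 2.60% in the WT. Since it lies inside the Bmp7 gene body and exons were not at hand, its bases may also belong to a Bmp7 exon. The Grem1 stretch held 24 (12.0%) and no listed region, with the nearest gained region 1068 bp away. The 1700055K11Rik stretch held 4 (62.2%), in a region at 87.6% in the DKO and 89.4% in the WT. Of the members' stretches not shown, that of the ligand Bmp6 held 22 (14.8%) and that of the antagonist Chrd 28 (7.61%). No listed region overlapped either. These few promoters do not serve to compare ligands with antagonists. No sequence was at hand for a gained region.

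**Figure D3:**
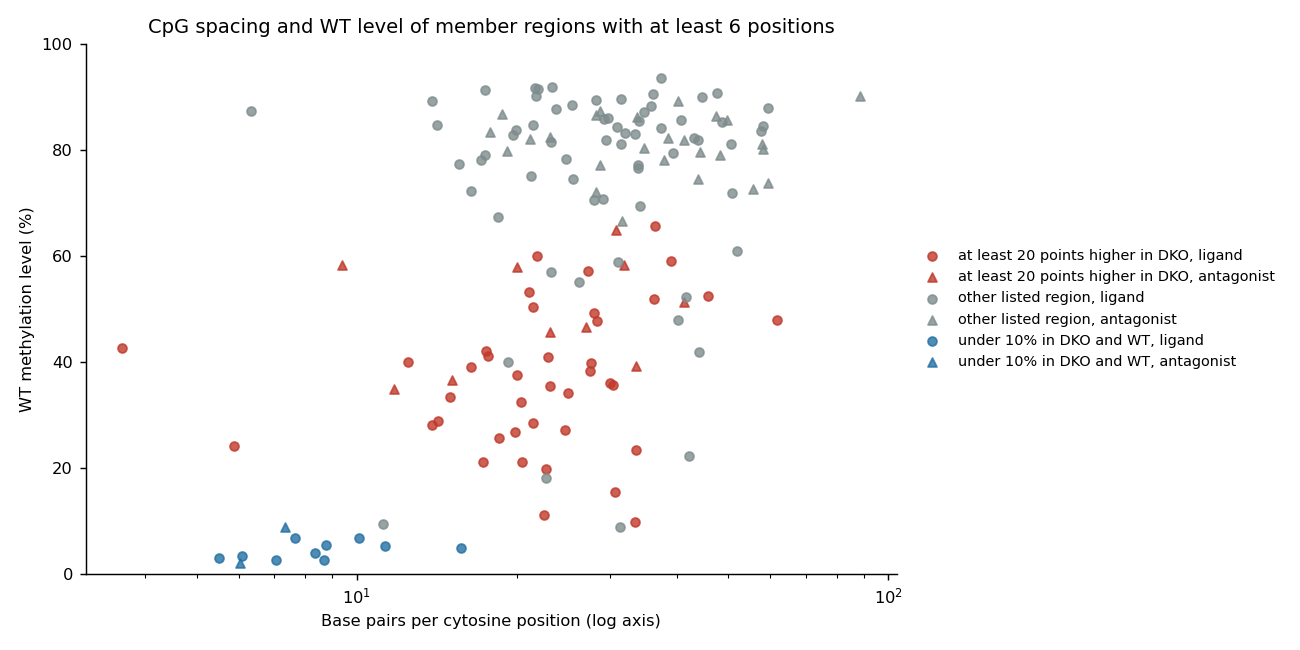
Each point is a listed region of a member with at least 6 cytosine positions, with base pairs per position on a log axis against its WT level in percent; circles are ligand regions and triangles antagonist regions. The 12 regions under 10% in the DKO and the WT (blue) sit at the dense end with a median spacing of 8.0 bp, the 50 gained regions (red) at intermediate WT levels, and most of the 92 other listed regions (grey) at high WT levels.

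Bmp4 had the largest share of its window in gained regions among the 10 genes, 9.14% of 47.1 kb. Bmp4 is a ligand of the hair follicle mesenchyme and of differentiating matrix cells. Upstream of its start site, the region at chromosome 14, 46391076 to 46391255, was at 38.1% in the DKO and 11.1% in the WT. The next, at 46391579 to 46392608 with 34 positions, was at 77.2% in the DKO and 35.8% in the WT, a difference of 41.4 points (3.72 for the spread estimate of the authors' deposited table). The one after that, at 46392977 to 46394273, was at 75.1% in the DKO and 47.9% in the WT. These 3 follow each other from 407 bp outside the gene outwards, and the DKO level was lowest in the one nearest the gene. A further low region, 625 bp wide at 46398156 to 46398780, was at 6.83% in the DKO and 6.88% in the WT. The region just before it was at 71.8% in the DKO and 40.9% in the WT. Inside the gene, the region at 46385164 to 46385282 was at 51.0% in the DKO and 26.8% in the WT, 436 bp from a low region. On the far side, the region at 46381226 to 46381759 had the lowest WT level of all gained regions of the 10 genes, with 39.7% in the DKO and 9.74% in the WT. The widest difference at Bmp4 among regions of 10 or more positions was 41.9 points at 46364217 to 46364426, with 83.9% in the DKO and 42.0% in the WT, 19099 bp from the gene. The 15 other listed regions of Bmp4 differed by between -2.43 and 2.37 points, with none between these and the bound of 20 points.

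Bmp2, the closest relative of Bmp4, had 6.44% of its 50.7 kb window in gained regions, on both sides of the gene and inside it. The region with the most positions, 47 at chromosome 2, 133566111 to 133567546, was at 62.0% in the DKO and 15.6% in the WT (46.4 points, 4.69 for the spread estimate of the authors' deposited table), 3215 bp beyond the gene. A neighbour of 4 positions was at 64.1% in the DKO and 22.8% in the WT. At 133564026 to 133564327, 1130 bp beyond the gene, the level was 75.1% in the DKO and 38.4% in the WT. These 3 form a cluster on the higher-coordinate side. On the other side, at 133550285 to 133551134, the region was at 70.0% in the DKO and 34.1% in the WT, 830 bp from the dense region at the gene end. Between the cluster members lay a region of 14 positions at 28.8% in the DKO and 22.2% in the WT, so a low WT level did not always go with a gain of 20 points. Of the 8 regions of Bmp2 that were not gained, 7 were still higher in the DKO, by up to 7.80 points, where 67.2% of all regions not gained were lower. Leaving out the gains fixes part of that 67.2%, here and where it is given for other genes.

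Bmp7, a ligand of the other large BMP branch with roles in epithelial and kidney development, held 21 gained regions, 14 of them inside its gene of 72310 bp. They covered 6.42% of the window. The widest difference was 48.4 points at chromosome 2, 172855743 to 172856285, 11727 bp outside the gene, with 75.6% in the DKO and 27.1% in the WT. Its spread estimate in the authors' deposited table was 6.29, the highest of the gained regions here. Inside the gene, a region of 24 positions at 172876383 to 172876928 was at 65.8% in the DKO and 19.9% in the WT. A region of 58 positions at 172913978 to 172914928, was at 79.1% in the DKO and 39.0% in the WT. A region of 25 positions at 172932695 to 172933204, was at 73.5% in the DKO and 32.4% in the WT, 473 bp from a region of 90 positions at 6.04% in the DKO and 4.87% in the WT. High and low DKO levels thus lay side by side inside the gene. Of the 31 regions of Bmp7 that were not gained, 25 were higher in the DKO, the largest by 13.5 points (82.9% in the DKO, 69.5% in the WT, 42 positions). Of the 66 gained regions, 1 had a positive extreme statistic in the authors' deposited table, at 172882910 to 172883215 in Bmp7 (80.2% in the DKO, 60.05% in the WT), while in the other 65 it was negative.

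Bmp6, a ligand known for its role in iron regulation and present in resting follicle stem cells, had 11 gained regions spread over a long window of 194.6 kb, 10 of them inside the gene. They covered 1.53% of it, a share that 53.3% of all genes reached or passed. The widest difference was 47.3 points at chromosome 13, 38419835 to 38420264, with 75.8% in the DKO and 28.5% in the WT (20 positions, 3.51 for the spread estimate of the authors' deposited table). The region at 38393128 to 38393756 was at 71.8% in the DKO and 36.0% in the WT. The one at 38344384 to 38344591, 1125 bp before the gene, was at 61.6% in the DKO and 28.1% in the WT. The widest gain at Bmp6 was close in size to those of Bmp2 and Bmp7, while its median gain was 27.3 points, against 35.9 at Bmp2 and 31.8 at Bmp7. A region at the far end of the gene, shared with Txndc5, stood just under the bound with 80.5% in the DKO and 61.0% in the WT (19.5 points). Of the 33 regions not gained, 26 were lower in the DKO (67.2% in the whole table), the largest difference being -4.68 points.

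Bmp8a, a ligand best known from the germ line, had 2 gained regions, neither of them inside the gene. One lay 5419 bp away (chromosome 4, 123306405 to 123307226) at 79.2% in the DKO and 53.3% in the WT. The other, at 123297008 to 123297744, was at 91.1% in the DKO and 47.7% in the WT and lay inside the neighbouring gene Pabpc4. Inside and beside Bmp8a, regions of intermediate WT level were listed that were not higher in the DKO. They were at 34.9% in the DKO and 40.04% in the WT (26 positions), at 51.7% in the DKO and 52.7% in the WT (3 positions), and at 43.0% in the DKO and 52.3% in the WT (8 positions, inside Macf1). The last, at -9.39 points, was the largest loss at a ligand. A further region inside the gene, in the overlapping gene Oxct2a, was at 15.4% in the DKO and 18.04% in the WT (15 positions). Of the 14 regions of Bmp8a that were not gained, 13 were lower in the DKO, against 67.2% in the whole table.

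Among the antagonists, Bambi held the most gained regions and the widest differences. Its 5 gained regions covered 1.72% of a window of 49.4 kb. A pair outside the gene on chromosome 18 was at 66.2% in the DKO and 20.1% in the WT (3499623 to 3499624, 2 positions) and at 75.3% in the DKO and 30.004% in the WT (3500045 to 3500303, 5 positions). Both lay within 1 kb of a CpG-dense region of 42 positions at 9.06% in the DKO and 8.81% in the WT. At 467 bp from the gene, 4 positions were at 78.1% in the DKO and 46.9% in the WT. Inside it, a region of 14 positions at 3512961 to 3513390 was at 88.7% in the DKO and 64.9% in the WT, the only gained region of Bambi with at least 10 positions. Of the secreted antagonists, Chrd, which encodes chordin, had 4 gained regions over 2.07% of its window. The largest, at chromosome 16, 20756019 to 20756667 with 24 positions, was at 77.7% in the DKO and 46.5% in the WT (31.2 points), 13635 bp from the gene. Inside Chrd, 1 region of 8 positions was at 57.2% in the DKO and 36.6% in the WT. Another, in the neighbour Clcn2, was at 55.4% in the DKO and 34.2% in the WT. All 12 other listed regions of Chrd were lower in the DKO, again against 67.2% in the whole table. The largest loss of the 10 genes was among them, at 71.2% in the DKO and 82.2% in the WT over 2 positions, at 20757830 to 20757831.

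Nog, Fst and Grem1, whose bodies few or no listed regions overlapped, had gained regions only at a distance from the gene body. Nog, which encodes noggin, had 1 at chromosome 11, 89290328 to 89290729, 9909 bp away, at 72.1% in the DKO and 39.3% in the WT (32.8 points, 3.37 for the spread estimate of the authors' deposited table). A second, 18970 bp away, was at 83.7% in the DKO and 58.4% in the WT. Fst, which encodes the activin and BMP binding protein follistatin, had 1 at 80.5% in the DKO and 51.3% in the WT, 19328 bp away on chromosome 13, and 1 at 81.8% in the DKO and 58.3% in the WT, 6935 bp away. Beside the second, a single position was at 76.3% in the DKO and 57.6% in the WT, 18.7 points and so under the bound. Grem1, which encodes gremlin, had its 1 gained region 1318 bp from the gene at chromosome 2, 113759966 to 113760150, at 65.9% in the DKO and 45.7% in the WT, just above the bound at 20.2 points. In the WT, 4 of these 5 regions lay above the median of the ligands' gained regions (39.9%) and above that of all gained regions (45.6%). No gain at these 3 genes reached 40 points, a bound at which the share over all gained regions was not taken. The upper quartile over all gained regions was 34.2 points, below that bound. The largest losses were differences of -3.91 points at Nog, -6.29 points at Fst and -3.44 points at Grem1.

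Set side by side, the 5 ligands had more of their windows in gained regions than the 5 antagonists, but the 2 groups of genes overlapped. The mean was 5.15% over the ligands (range 1.53 to 9.14) and 1.51% over the antagonists (0.370 to 2.33), a difference of 3.64 points, where all protein-coding genes averaged 2.53% with a median of 1.76%. Bmp4, Bmp2 and Bmp7 lay above the upper quartile of all genes (4.03%), and 2.84%, 9.83% and 9.86% of all genes reached their shares. Bmp6 and Bmp8a lay inside the range of the antagonists. Gained regions were 52 of the 153 listed at ligands (34.0%, 95% Wilson interval 27.0 to 41.8) and 14 of the 55 at antagonists (25.5%, 15.8 to 38.3). These shares differed by 8.53 points, with a Newcombe interval of -6.11 to 20.9 that includes 0 and covers counting error over regions only. The intervals treat neighbouring regions of the same gene as independent, and so may be too narrow. Among ligands alone the share ran from 12.5% at Bmp8a to 46.7% at Bmp2. The gained regions of ligands lay more often inside the gene (27 of 52) than those of antagonists (3 of 14), but gene bodies made up 57.9% of the ligand windows and 16.3% of the antagonist windows. Of the 27, 24 were in the long genes Bmp6 and Bmp7. Weighted by length, gained regions stood at 72.8% in the DKO and 38.4% in the WT at ligands. At antagonists they stood at 77.7% in the DKO and 49.1% in the WT, and over all gained regions at 74.3% in the DKO and 41.9% in the WT. By gene, this weighted WT level was 29.7% at Bmp2, 36.9% at Bmp7 and 37.9% at Bmp4. It was 46.0% at Bmp6 and 50.6% at Bmp8a, inside the range of the antagonists (45.7% at Grem1 to 52.4% at Fst). Without weights, the median WT level was 39.9% at ligands and 46.1% at antagonists, against 45.6% over all gained regions. Genes are not replicates, so none of these differences was tested. The difference in mean coverage was 1.60 points over gene bodies alone, 7.98 points with 5 kb on either side and 1.85 points with 50 kb.

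**Figure D4:**
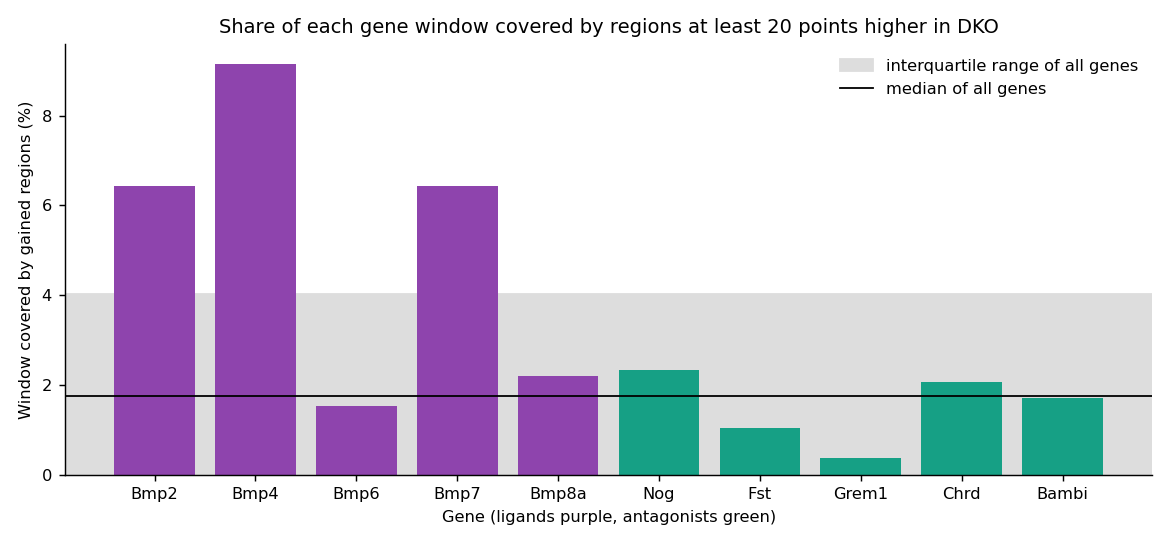
Bars give the percent of each gene window (gene body and 20 kb on either side) that gained regions cover, for ligands (purple) and antagonists (green), with the median (1.76%) and interquartile range of all protein-coding genes as line and band. Bmp4, Bmp2 and Bmp7 stand above the band and the other 7 genes within it.

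Outside the gained and the low regions, small losses prevailed at the antagonists, as they did in the whole table, where 67.7% of such regions were lower in the DKO with a median of -1.86 points. Leaving out the gains fixes part of this lean. Of the 39 such regions at antagonists 34 were lower in the DKO, with a median difference of -2.85 points (78.4% in the DKO, 81.5% in the WT). At ligands 51 of 90 were lower, with a median of -0.45 points (82.9% in the DKO, 82.8% in the WT). Of all 129, 127 had a positive extreme statistic in the authors' deposited table, the sign whose listing bound lies nearer to 0. These differences are therefore of listed regions only. Higher by any amount in the DKO were 99 of 153 regions at ligands and 21 of 55 at antagonists, against 48.2% in the whole table.

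Among the other genes of the BMP pathway, ligands did not stand above the mixed class of antagonists and modulators. Of 51 further genes 49 held a gained region (75.1% of all gene windows did), and their median coverage was 3.37%. The 10 other ligands had a median of 1.84%, led by Bmp3 at 5.66%, a ligand that opposes other BMPs, and Gdf2, a circulating ligand, at 2.63%. The widest gain of Gdf2 also lies in the window of its neighbour Gdf10. The 19 other extracellular antagonists and modulators had a median of 3.23%. They were led by Twsg1, a chordin and BMP binding protein, at 10.5% (widest gain 66.3% in the DKO, 17.6% in the WT), and Smoc2, a matrix protein, at 10.5% (75.7% in the DKO, 26.9% in the WT). With all ligands and all antagonists and modulators counted, the mean was 3.11% over 15 ligands and 3.85% over 24 antagonists and modulators. The difference was -0.73 points, so the order found with the 10 genes turned in these lists. The 24 are not a like set to the 5 antagonists, since modulators are among them, and Bmp3 stands with the ligands. Antagonists were not counted apart from modulators. The count over the full lists was added after the values were seen.

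Downstream of the ligands, the receptors, Smads and targets had medians above that of all genes. The 10 receptors and co-receptors had a median of 4.25%, led by Acvrl1, a type I receptor, at 11.1% (widest gain 74.8% in the DKO, 24.7% in the WT), and Acvr1, another type I receptor, at 6.77% (84.9% in the DKO, 31.8% in the WT). The 6 Smads had a median of 5.57%, led by the inhibitory Smad7 at 14.2% (75.04% in the DKO, 19.3% in the WT) and Smad5, which carries the BMP signal, at 7.57% (67.1% in the DKO, 22.2% in the WT). The 6 targets had a median of 3.97%, led by the differentiation inhibitor Id3 at 10.3% (69.4% in the DKO, 33.5% in the WT) and the homeobox factor Msx2 at 6.57% (82.7% in the DKO, 30.2% in the WT). All 22 of these genes held at least 1 gained region.

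**Figure D5:**
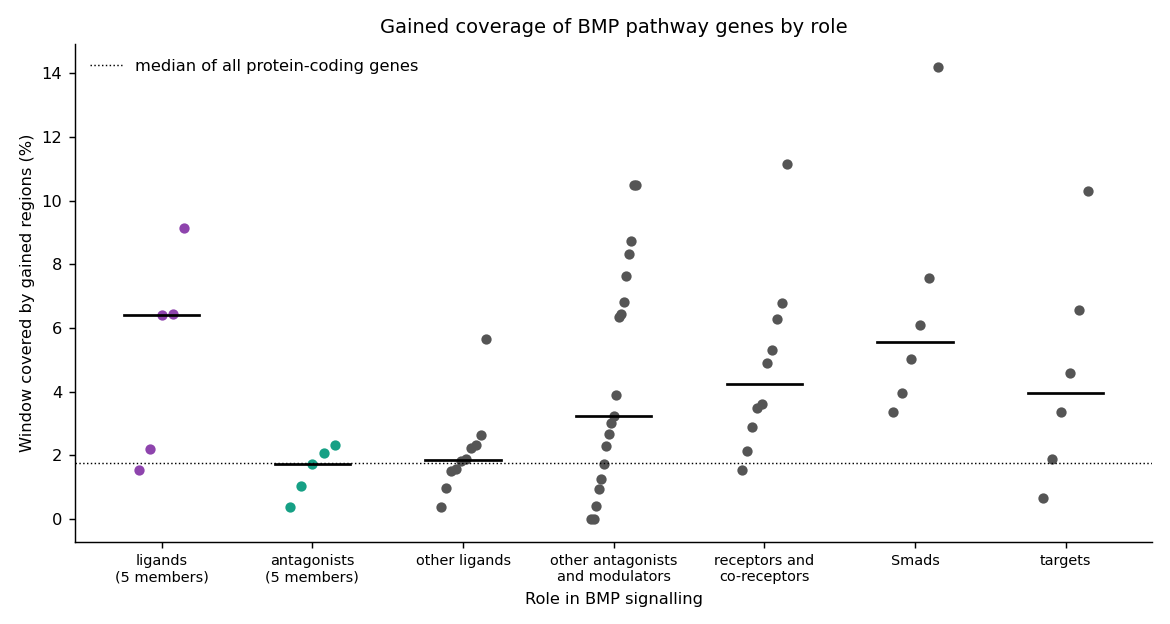
Each point is a gene, with the percent of its window that gained regions cover, by role in BMP signalling; short lines are medians and the dotted line is the median of all protein-coding genes (1.76%). The 5 antagonists among the members lie between 0.370% and 2.33%, while the 19 other antagonists and modulators reach 10.5%.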

How the data were processed

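Whole-genome bisulfite libraries of sorted hair matrix keratinocytes (2 DKO, 2 WT) were grouped by title. The submitters' processing notes name Trim Galore, Bismark, GRCm38 and mm10. How regions were called, smoothed and filtered is not stated in the labels or headers used here. The authors deposited 1 table of their comparison. Per the file headers, it holds each group's mean methylation level as a fraction, multiplied here to percent. It also holds a statistic and its spread estimate, treated as scores, per the file headers. Positions and widths are whole numbers. Coordinates are 1-based, since all 2559 region starts inside promoter windows fell on a base of a CG.

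Gene bodies came from RefSeq (GRCm38.p6), without exons. Covered shares were clipped to the window, and the calculation was tested on simulated data. Members and lists were chosen with earlier results of these data known. Named were all members, the widest gain of at least 10 positions and the largest loss of each, and the 2 genes with the highest coverage in each other role, besides regions picked after their values were seen. A result for 1 pathway gene is not reported here. Tests on reads per library, planned in case the table held them, could not be run. Alternatives were other windows, bounds and minimum positions, regions outside other coding genes, and Bambi left out. Tables were handled with pandas 2.3.3 and numpy 2.4.6 under Python 3.11.15, intervals with scipy 1.17.1, and plots with matplotlib 3.10.9.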

Additional observations from a re-analysis of the deposited data

How the results depend on the processing

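Under the 7 planned changes of window, bound or region filter, and with Bambi left out, ligands kept the higher mean coverage. They also kept the lower WT level with the gained regions of each role pooled, though not gene by gene, as given above for the main setting. The mean coverage of the 10 windows (3.33%) was 2.14% over gene bodies, 4.89% with 5 kb, 2.77% with 50 kb, 3.47% at 10 points, 1.94% at 30 points, 2.77% with at least 10 positions and 3.20% without other coding genes. In the same order, ligands minus antagonists in coverage (3.64 points) was 1.60, 7.98, 1.85, 3.93, 2.73, 3.25 and 3.47 points. In WT level of gained regions (-10.7 points) it was -13.6, -15.3, -9.60, -8.25, -6.96, -14.6 and -11.4 points. Without Bambi these were 3.69 and -10.6 points. With all ligands and all antagonists and modulators, chosen after seeing the data, they turned to -0.73 and 1.77 points, and the cause was not tested. The difference in the share of listed regions gained (8.53 points) ran from 1.03 points with the full lists to 10.9 points without Bambi. Gene bodies alone left 6 of the 10 members with a gained region, since fewer regions overlap them. Chrd and Bambi were the only antagonists among these. With 5 kb on either side 7 members held a gained region, and the antagonists among them were Grem1, Chrd and Bambi. In these settings the antagonist values thus rest on few genes. Of the 51 other BMP pathway genes, 36 held a gained region over gene bodies alone and 45 with 5 kb on either side. The share over all protein-coding genes was not taken at these windows, so the member counts have no such background. No paired analysis was possible because the deposited table gives 1 mean per group, and leaving out a library was not run for the same reason. The depth is unknown, so no level has an interval.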

Other observations

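Gained regions outside the 20 kb bound were not counted. The nearest gained region beyond the bound lay 21223 bp from Bmp2 (79.9% in the DKO, 55.6% in the WT), 24727 bp from Bmp6 (73.5% in the DKO, 25.4% in the WT, 34 positions), 25345 bp from Bmp7 (59.0% in the DKO, 33.8% in the WT), 28101 bp from Bmp4 and 60036 bp from Bmp8a, the farthest of the 10. At Bmp6 this difference, 48.1 points, was larger than any inside its window. Among antagonists the nearest lay 26553 bp from Chrd (82.4% in the DKO, 48.2% in the WT), 31382 bp from Fst, 35854 bp from Nog, 36617 bp from Grem1 and 41492 bp from Bambi. The farthest gained regions inside the bound were 19328 bp from Fst and 19099 bp from Bmp4.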
